A study of Mus musculus with 6 samples.

Results

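The genes described here are 9 genes of cholesterol export and of the liver X receptors (LXRs) in cultured mouse macrophages: Abca1, Abcg1, Apoe, Nr1h2, Nr1h3, Mylip, Soat1, Nceh1 and Lpcat3. They were chosen by name, and each was found in a table of read counts for 16519 genes. All 9 passed the filter on low counts, which left 12605 genes tested. The cells were bone marrow derived macrophages (BMDMs), macrophages grown in culture from bone marrow, and RNA was sequenced in bulk. In 3 libraries the cells came from Trmt61a f/f LysmCre mice (TRMT61A-KO, called KO here) and in 3 from Trmt61a f/f mice without Cre (TRMT61A-WT, called WT). Mice of both genotypes carry the floxed allele, and Trmt61a is the gene for the catalytic part of a methyltransferase that makes N1-methyladenosine in tRNA. LysM-Cre is a Cre gene inserted in the lysozyme gene Lyz2 and acts in myeloid cells, and only KO mice carry it. A difference between the genotypes therefore cannot be told apart from an effect of Cre or of the altered Lyz2 gene. Age and any treatment of the cells are not given in the labels, nor is it said whether the 3 libraries came from separate mice. If they did not, the p-values reflect technical spread and not spread between mice.

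Macrophages take up cholesterol in lipoproteins and dying cells and cannot break its ring down, so they store it as ester or export it. Excess cholesterol is converted to oxysterols, which bind the LXRs; an LXR pairs with a retinoid X receptor (RXR) on DNA and switches on export and lipid remodelling genes. Abca1 loads cholesterol and phospholipid onto lipid-poor apolipoprotein, Abcg1 passes it on to larger high-density lipoprotein, and Apoe is a secreted acceptor. When sterols are low the factor SREBP2 instead switches on cholesterol synthesis and uptake.

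The promoters of Abca1 and Nceh1 are shown because these were the 2 members whose KO and WT libraries did not overlap. Neither gene passed the test for a difference between the genotypes, and a link between any motif and genotype was not tested. Each line gives the 250 bases before a RefSeq start of the gene, on the gene's own strand (GRCm38.p6, the assembly of mm10). Abca1 is at chr4:53159896-53160145 on the minus strand and Nceh1 at chr3:27182754-27183003 on the plus strand. The Abca1 start used here lies inside the Abca1 gene span given below, which ends at 53159988. The bases of its line up to 53159988, with the TATAAA and DR4 matches, therefore fall within that span. Capitals mark matches to CACGTG (the E-box), to TATAAA and to the DR4 motif.
Abca1: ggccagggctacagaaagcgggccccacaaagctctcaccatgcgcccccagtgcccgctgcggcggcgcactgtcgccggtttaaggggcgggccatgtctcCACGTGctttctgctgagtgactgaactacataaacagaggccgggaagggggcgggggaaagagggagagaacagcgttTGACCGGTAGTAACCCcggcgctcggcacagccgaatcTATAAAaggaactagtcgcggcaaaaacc
Nceh1: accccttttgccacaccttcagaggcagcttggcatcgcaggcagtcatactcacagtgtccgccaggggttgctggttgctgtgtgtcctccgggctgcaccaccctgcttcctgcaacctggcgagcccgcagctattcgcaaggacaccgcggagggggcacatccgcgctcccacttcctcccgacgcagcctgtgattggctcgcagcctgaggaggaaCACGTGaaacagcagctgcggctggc
DR4, the element that LXR with RXR is known to bind, was searched on both strands as AGGTCA, any 4 bases and AGGTCA again, which compares 12 positions. With up to 2 mismatches it was in 3.02% of 32851 RefSeq windows, which run from 250 bases before to 50 after a start, and in 0 of the 11 windows of 8 members. No window was found for Abcg1, so its promoter was not searched for any of the motifs. With up to 3 mismatches DR4 was in 21.9% of windows and, among the 8 members searched, in Abca1 alone. That Abca1 match lies 67 to 52 bases before the start and reads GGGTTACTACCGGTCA on the opposite strand. The Abca1 window also holds CACGTG 147 to 142 bases and TATAAA 29 to 24 bases before the start. CACGTG, which reads the same on both strands, was in 7.15% of windows and in Abca1 and Nceh1 among members, in Nceh1 26 to 21 bases before the start. TATAAA was in 13.6% of windows and in those of Abca1, Apoe and Mylip. The Apoe window with this match lies inside the Apoe gene span given below. GGGCGG was in 35.7% of windows and those of 4 members, and CCAAT in 37.4% and those of 4 members. The printed matches do not overlap each other. A match describes letters and does not show whether a site is in use. The search says nothing of LXR elements elsewhere in these genes.

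The libraries held between 37021855 and 41033179 gene counts, and levels are given as CPM, which are counts scaled to a common library size. Trmt61a was at 0.608 ± 0.128 CPM in KO against 4.64 ± 0.648 CPM in WT (mean ± SD, n = 3), with a log2 ratio of -2.92 (edgeR adjusted p = 0.00219). Lyz2 was lower in KO, with a log2 ratio of -0.99 (edgeR adjusted p = 0.00735), a call that was lost without KO 2 (0.147) or without WT 1 (0.0671). The 8 macrophage markers examined were abundant in every library, from 172 CPM for Fcgr1 to 5117 CPM for Csf1r. Summed markers of dendritic cells reached 4.45 CPM at most, of mast cells and basophils 2.07 and of lymphocytes 5.06. Markers of neutrophils, which share precursors with macrophages, summed to between 970 and 1755 CPM, and those of stromal and endothelial cells to between 103 and 237 CPM. In bulk RNA, fewer cells of a type and less RNA per cell cannot be told apart.

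No member differed between KO and WT by the test used. At an adjusted p under 0.05 edgeR called 0 of 9 members, where it called 0.0317% of all tested genes (0.00793% as higher and 0.0238% as lower in KO), and 0 members had an unadjusted p under 0.05, where 3.10% of tested genes had one. DESeq2 and limma voom also called 0 members, and in DESeq2 Abca1 had an unadjusted p of 0.0395. The adjusted p was 0.999949 for each member in edgeR, and without KO 1 and WT 2 together the count of members called was also 0. In that smaller edgeR fit Abca1 had an unadjusted p of 0.0460. Of the 9 log2 ratios of KO to WT (fitted log2 fold changes) 6 lay above 0 and 3 below, with a median of 0.04; of the 12605 tested genes 6308 lay above 0, with a median of 8.4e-05. KO and WT libraries did not overlap for 2 of 9 members, which is 22.2%, where 8.65% of tested genes had no overlap and 4.05% had none with KO higher. The 95% interval lay within 1.2-fold in either direction for 7 members and within 1.5-fold for 8, so that larger differences than these lay outside the intervals. The remaining member was Nr1h3, and for Abcg1 the interval passed 1.2-fold but not 1.5-fold.

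**Figure D1:**
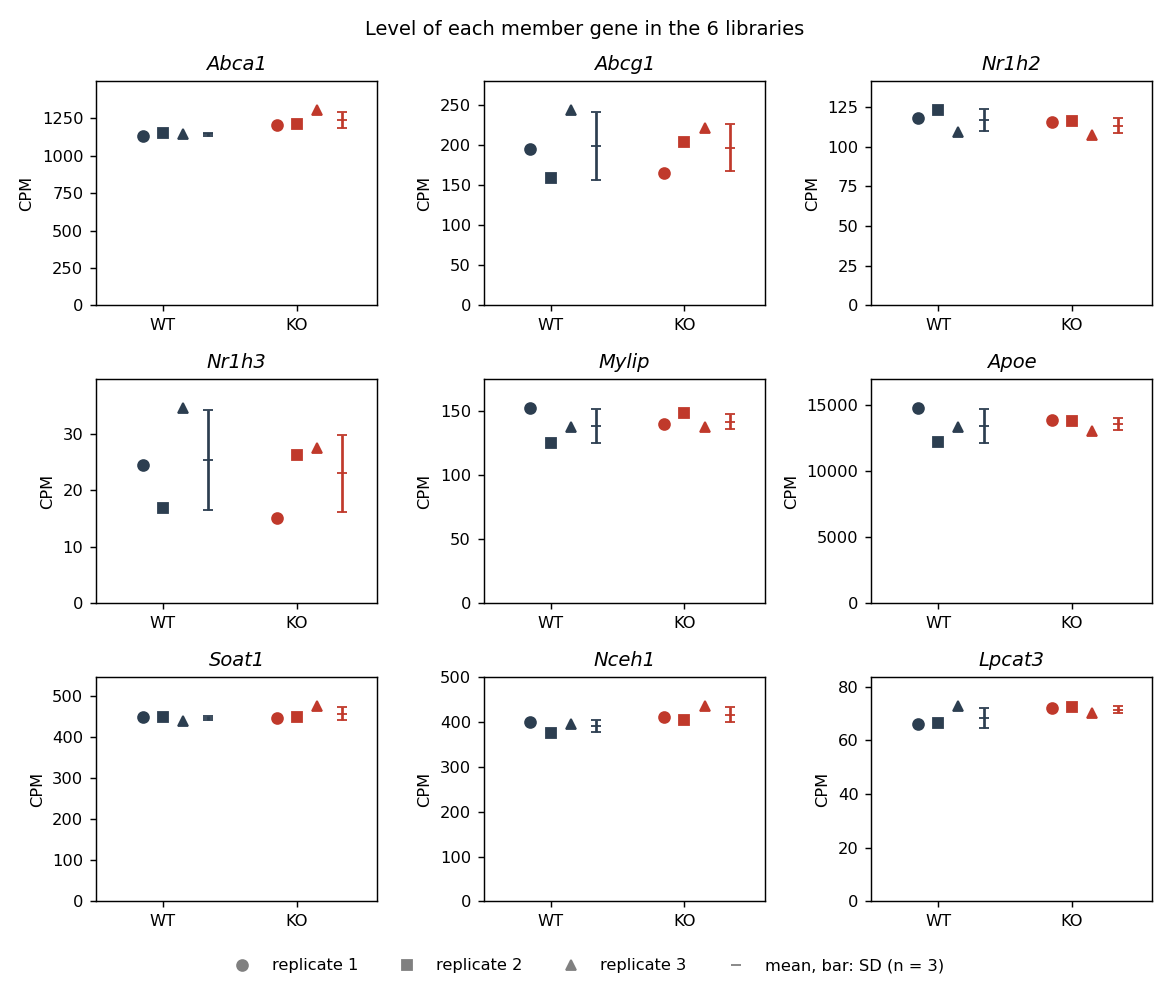
Level of each of the 9 genes (y axis, CPM, from 0) by genotype (x axis), with a circle, square or triangle for replicate 1, 2 or 3 and a bar for the mean and SD of 3 libraries. Abca1 and Nceh1 show KO points above every WT point, and Nr1h3 and Abcg1 show the widest spread, with KO 1 and WT 2 lowest.

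Among the exporters, Abca1 (Entrez Gene 11303, chromosome 4, 53030789 to 53159988) was at 1207, 1211 and 1302 CPM in KO 1, 2 and 3 and at 1133, 1153 and 1141 CPM in WT 1, 2 and 3. The 3 WT libraries lay close together, each KO library lay above them, and KO 3 stood highest. The means were 1240 ± 53.7 CPM in KO against 1142 ± 9.96 CPM in WT (mean ± SD, n = 3), a 1.09-fold ratio in the fit with a 95% interval from 0.994 to 1.19. The KO to WT log2 ratio of Abca1 was 0.12 (standard error 0.06), short of the threshold. Exact permutation of the libraries (two-sided) gave p = 0.1, and 3 against 3 libraries allow no smaller value. Behind each Abca1 value stood between 41791 and 53200 counts.

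Abcg1 (Entrez Gene 11307, chromosome 17, 31057694 to 31117984), the second exporter, was at 166, 204 and 222 CPM in KO 1, 2 and 3 and at 196, 159 and 244 CPM in WT 1, 2 and 3. KO 1 and WT 2 were the lowest libraries of their genotypes, WT 3 was the highest of the 6, and the groups overlapped. The means were 197 ± 28.8 CPM in KO against 199 ± 42.7 CPM in WT (mean ± SD, n = 3), with a log2 ratio of -0.02 and a 95% interval from -0.47 to 0.44. Its direction depended on single libraries, at 0.10 without KO 1 and 0.16 without WT 3.

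Apoe (Entrez Gene 11816, chromosome 7, 19696244 to 19701310), which encodes the lipoprotein component that macrophages secrete, was at 13878, 13735 and 13009 CPM in KO 1, 2 and 3. In WT 1, 2 and 3 it was at 14732, 12168 and 13305 CPM. The highest and the lowest library were both WT, and the KO libraries lay between them. The KO to WT log2 ratio was 0.01 with a 95% interval from -0.16 to 0.19, and it turned to -0.07 without KO 1 and WT 2 together. Between 484497 and 546423 counts stood behind each Apoe value.

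Of the receptors, Nr1h2 encodes LXR-beta, which most tissues express, and Nr1h3 encodes LXR-alpha, which is prominent in macrophages, liver and fat. Nr1h2 (Entrez Gene 22260, chromosome 7, 44549616 to 44553968) was at 116, 116 and 108 CPM in KO 1, 2 and 3 and at 118, 123 and 109 CPM in WT 1, 2 and 3. Its groups overlapped, and the third library was the lowest in each genotype. The KO to WT log2 ratio was -0.05 with a 95% interval from -0.18 to 0.09, and it was -0.010 without WT 2 and -0.011 without KO 3.

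Nr1h3 (Entrez Gene 22259, chromosome 2, 91184061 to 91202829) was at 15.2, 26.2 and 27.5 CPM in KO 1, 2 and 3 and at 24.5, 16.9 and 34.5 CPM in WT 1, 2 and 3. KO 1 and WT 2 again stood lowest, the highest library was 2.27 times the lowest, and the groups overlapped widely. The means were 23.0 ± 6.77 CPM in KO against 25.3 ± 8.83 CPM in WT (mean ± SD, n = 3), and between 573 and 1417 counts stood behind each value. The KO to WT log2 ratio was -0.14 with a standard error of 0.35 and a 95% interval from -1.02 to 0.74. A difference of 1.5-fold in either direction lay inside this interval and was not excluded. Without KO 1 it was 0.09, without WT 3 it was 0.15, and without KO 1 and WT 2 together it was -0.14. Nr1h3 shares 18 bases with Acp2 and 104 with the small RNA gene Gm23390, and Lpcat3 shares 347 bases with Emg1. How strand was treated in counting is not known here, so reads in those stretches cannot be assigned.

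Per kilobase of exon, the 2 receptors differed in level in every library. The Nr1h2 level was 5.71, 3.32 and 2.93 times the Nr1h3 level in KO 1, 2 and 3 and 3.61, 5.45 and 2.37 times in WT 1, 2 and 3. KO 1 and WT 2 gave the largest ratios, and the genotypes overlapped.

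Mylip (Entrez Gene 218203, chromosome 13, 45389742 to 45411940) encodes the ubiquitin ligase, also called IDOL, through which LXRs bring about breakdown of the low-density lipoprotein receptor. It was at 140, 148 and 137 CPM in KO 1, 2 and 3 and at 152, 125 and 137 CPM in WT 1, 2 and 3. The WT libraries again held both extremes. The KO to WT log2 ratio was 0.04 with a 95% interval from -0.12 to 0.20, and it turned to -0.03 without WT 2 and to -0.02 without KO 1 and WT 2 together. Lpcat3 (Entrez Gene 14792, chromosome 6, 124663094 to 124704716), an LXR target whose enzyme places polyunsaturated chains in membrane phospholipids, was at 72.1, 72.2 and 70.1 CPM in KO 1, 2 and 3. In WT 1, 2 and 3 it was at 65.9, 66.5 and 72.7 CPM. WT 3 stood above every KO library and the other two WT libraries stood below them, and the log2 ratio was 0.06 with a 95% interval from -0.07 to 0.20 and ran from 0.038 without WT 1 to 0.11 without WT 3.

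Soat1 and Nceh1 form the ester cycle, in which Soat1 esterifies cholesterol for storage in droplets and Nceh1 splits the ester outside the lysosome. Soat1 (Entrez Gene 20652, chromosome 1, 156428108 to 156474328) was at 446, 449 and 474 CPM in KO 1, 2 and 3 and at 448, 449 and 439 CPM in WT 1, 2 and 3. Apart from KO 3 the libraries were nearly level, and the log2 ratio was 0.04 with a 95% interval from -0.08 to 0.15, and it was 0.0080 without KO 3. Nceh1 (Entrez Gene 320024, chromosome 3, 27183004 to 27245266) was at 411, 404 and 435 CPM in KO 1, 2 and 3 and at 400, 375 and 396 CPM in WT 1, 2 and 3. Each KO library lay above each WT library, KO 2 and WT 1 being closest. The means were 416 ± 16.4 CPM in KO against 390 ± 13.5 CPM in WT (mean ± SD, n = 3), a 1.07-fold ratio with a 95% interval from 0.978 to 1.16. The KO to WT log2 ratio of Nceh1 was 0.09, or 0.061 without KO 3, and did not pass, and exact two-sided permutation again gave p = 0.1.

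**Figure D2:**
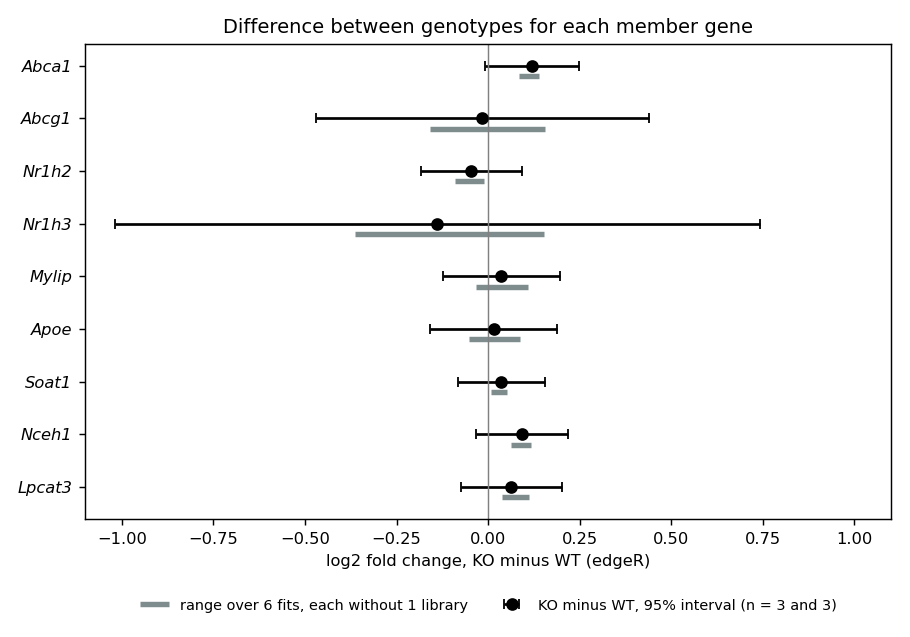
Log2 ratio of KO minus WT (x axis) for each member (y axis), with points and bars for the edgeR estimate and its 95% interval and grey lines for the range over 6 fits that each leave out 1 library. Every interval holds 0, the intervals of Nr1h3 and Abcg1 are the widest, and the grey lines of Abcg1, Nr1h3, Mylip and Apoe cross 0.

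Levels of different genes were compared as CPM per kilobase of exon. Apoe stood at 6301 ± 406 CPM per kilobase (SD over 6 libraries), 54.8 times Abca1 at 115 ± 6.17. Nceh1 followed at 76.8 ± 3.73, then Soat1 at 46.0 ± 1.23, Mylip at 43.4 ± 2.93, Nr1h2 at 34.2 ± 1.69, Abcg1 at 27.2 ± 4.46, Lpcat3 at 21.4 ± 0.922 and Nr1h3 at 9.60 ± 2.84. In this order Soat1 and Mylip, Nr1h2 and Abcg1, and Abcg1 and Lpcat3 overlapped between libraries, while each of the other neighbours was apart in all 6. With the length of the longest annotated transcript instead, a choice added after the data were seen, Nr1h2 stood above Soat1, at 57.5 against 53.8 CPM per kilobase, and Apoe was at 9568 against 116 for Abca1, a wider gap.

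**Figure D3:**
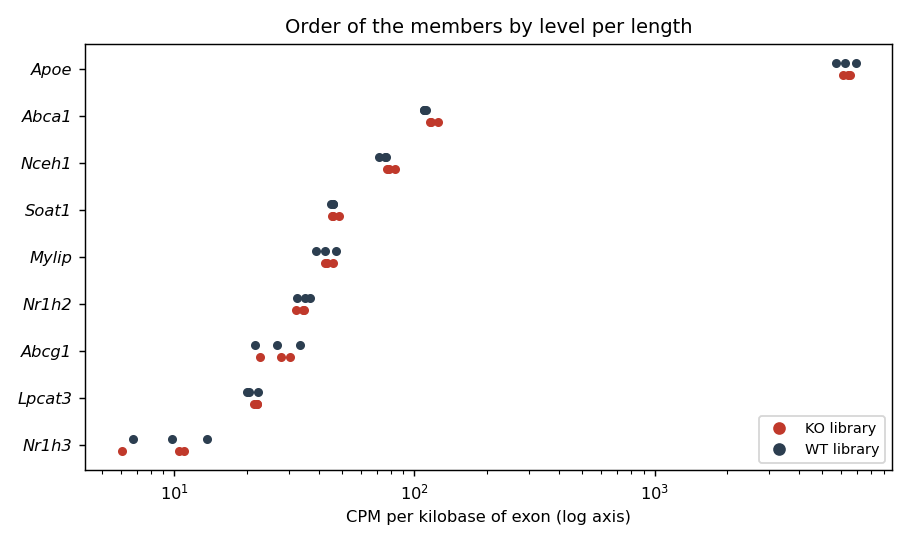
Level per length (x axis, CPM per kilobase of exon, log axis) of each member (y axis), with 1 point per KO or WT library. Apoe stands far above the other members, and Nr1h3 lies lowest in all 6 libraries.

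The members differed widely in how much they varied within a genotype. The standard deviation of log2 CPM within genotypes was 0.50 for Nr1h3, larger than for 99.4% of the 8443 tested genes that averaged 10 CPM or more, and 0.27 for Abcg1, larger than for 95.4%. It was 0.04 for Soat1, larger than for 4.76% of those genes, 0.04 for Abca1 (9.06%), 0.05 for Nceh1 and 0.06 for Lpcat3 (18.6%). Nr1h2, Apoe and Mylip lay between, at 32.6%, 55.6% and 57.9%. KO 1 held 0.565 times the mean Nr1h3 level of the other KO libraries, and WT 2 held 0.573 times that of the other WT libraries. The same ratios were 0.778 and 0.722 for Abcg1, and 0.961 and 1.01 for Abca1.

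KO 1 was the lowest KO library together with WT 2 as the lowest WT library for 2 of 9 members, Nr1h3 and Abcg1. That order held for 20.9% of tested genes, so the count is near the background and is no result about the members. These libraries also stood apart in other lists. The summed neutrophil markers were 986, 1531 and 1576 CPM in KO 1, 2 and 3 and 1199, 970 and 1755 CPM in WT 1, 2 and 3. The summed cell cycle genes were 501, 670 and 786 CPM in KO and 595, 465 and 748 CPM in WT, and the stromal and endothelial markers 106, 237 and 201 CPM in KO and 156, 103 and 162 CPM in WT. KO 1 and WT 2 were thus the lowest of their genotypes for each of these sums. Ly6g, Ccnb1, Birc5, Col3a1, Cdh5, Pecam1 and Kdr did not hold that order, and Kdr was highest in KO 1 among KO. The other genes of these lists held it. The summed macrophage markers went the other way, at 13416, 12120 and 11651 CPM in KO 1, 2 and 3 and 11929, 12962 and 12048 CPM in WT 1, 2 and 3, with KO 1 and WT 2 highest. Csf1r, Itgam, Mertk, Cd14 and Mrc1 held that order. Cd68 and Fcgr1 were instead lowest in KO 1 and WT 2, and Adgre1 was highest in KO 1 and WT 3. The hepatocyte and adipocyte markers summed to 20.5, 19.6 and 21.5 CPM in KO and 17.8, 33.5 and 20.1 CPM in WT, with WT 2 highest. The part of those cells or of proliferation in the Nr1h3 and Abcg1 values was not tested.

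**Figure D4:**
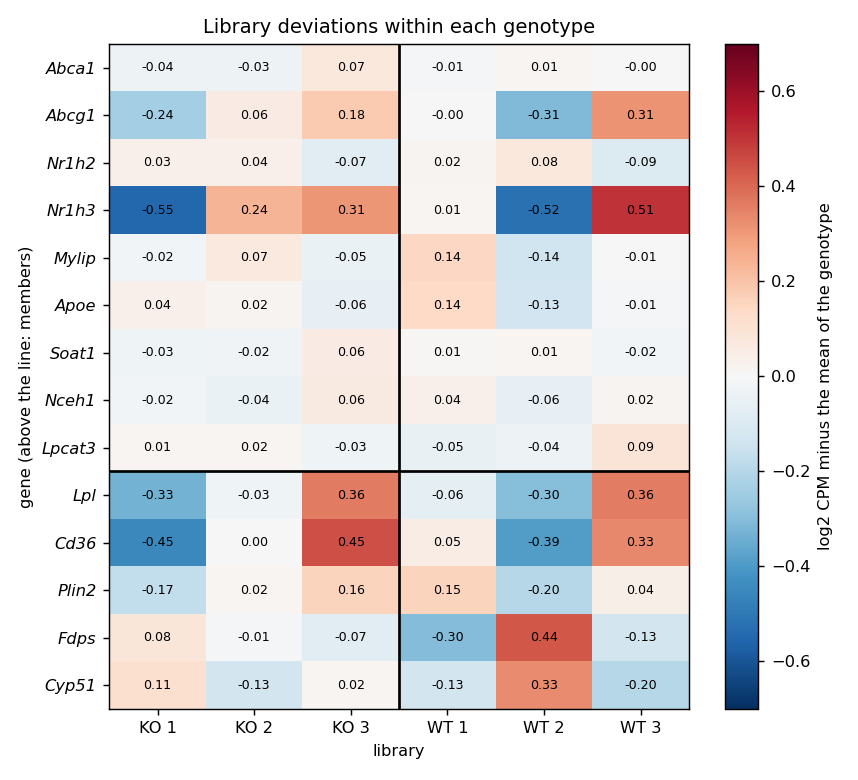
Log2 CPM of each gene (y axis) in each library (x axis) minus the mean of its genotype, as colour and number, for the 9 members and for 5 other genes chosen after their values were seen. Nr1h3 is at -0.55 in KO 1 and -0.52 in WT 2, Lpl and Cd36 are low in the same libraries, and Fdps is at 0.44 in WT 2.

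The genes whose levels over the 6 libraries were most like those of Abca1 and Abcg1 were found among 8442 genes that averaged 10 CPM or more. Likeness was the root mean square difference of log2 CPM after each gene's mean was removed. For Abca1 they were Ddb1, a subunit of a ubiquitin ligase (0.0201), Ufm1, a small protein modifier (0.0222), and Tmem14c, a mitochondrial membrane protein needed for haem synthesis (0.0222). For Abcg1 they were Sdc3, a cell surface proteoglycan (0.0271), Glrx, a glutaredoxin (0.0366), and Hat1, a histone acetyltransferase (0.0373). Only 6 libraries stand behind each value.

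The other genes of the pathway were read from 8 lists of 104 genes, of which 95 were tested. In total 0 passed in edgeR, DESeq2 or limma voom, and an unadjusted edgeR p under 0.05 was found for 3, Gps2, Hsd3b7 and Sqle. KO and WT did not overlap for 9 of the 95. Among all tested genes 3.10% had such a p and 8.65% had no overlap, so both counts are near the background and are no result about the pathway. Of the 87 genes that were no members, 37 lay above 0 and 50 below, with a median log2 ratio of -0.03.

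Among receptors, RXR partners and co-regulators, 0 of 14 tested genes passed, 4 lay above 0 and 10 below, and the median was -0.03. Gps2, a subunit of the co-repressor complex that holds LXR targets silent, was at 51.7 ± 1.49 CPM in KO against 57.2 ± 1.27 CPM in WT (mean ± SD, n = 3), with a log2 ratio of -0.15 that did not pass. Its complex partners Hdac3 and Ncor1 had 0.07 and -0.06, with Hdac3 at 0.026 without WT 2 and Ncor1 at -0.035 without KO 2. Rxra, which encodes an RXR, was at 190 CPM in KO against 183 CPM in WT, and Rxrg had 1 count in KO 1 and 0 in the other libraries, where 3 counts correspond to at most 0.0813 CPM. KO 1 and WT 2 were the highest libraries of their genotypes for 8 of the 14 genes, opposite to Nr1h3; that order held for 20.0% of tested genes.

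Of 20 tested further LXR targets 0 passed, with 9 above 0, 11 below and a median of -0.02. Scd2, a fatty acid desaturase, was at 61.3 ± 8.73 CPM in KO against 74.2 ± 11.4 CPM in WT, and Pltp, the phospholipid transfer protein, at 1434 ± 44.6 CPM in KO against 1312 ± 110 CPM in WT (mean ± SD, n = 3), with log2 ratios of -0.28 and 0.13. Fads2, another desaturase, had -0.22. Scd2 was at -0.16 without KO 1, and without WT 2 Pltp was at 0.067 and Fads2 at -0.13. Srebf1, the LXR target that drives fatty acid synthesis, was at 64.2 ± 2.30 CPM in KO against 66.4 ± 0.594 CPM in WT (mean ± SD, n = 3), a log2 ratio of -0.05. Lpl, the lipoprotein lipase gene, was at 2563, 3156 and 4149 CPM in KO 1, 2 and 3 and at 3086, 2627 and 4136 CPM in WT 1, 2 and 3. As for Nr1h3 and Abcg1, its lowest libraries were KO 1 and WT 2, and its groups overlapped. That order held for 4 of the 20 genes, and the opposite order, with KO 1 and WT 2 highest, for 8. Among all tested genes the shares were 20.9% and 20.0%. Srebf1, Rxra and Lpl were named after their values were seen.

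In the export list, Scarb1, a receptor for high-density lipoprotein, had -0.14, Cav1, the caveolin gene, 0.36 and Abca7, a relative of Abca1, -0.05 as log2 ratio, and 0 of 9 tested genes passed. The median of that list was -0.03, with 3 genes above 0. Without WT 2 Scarb1 was at -0.080, Cav1 ran from 0.085 without KO 3 to 0.59 without KO 1, and Abca7 changed sign without KO 3 (0.0095). Abcg4, a close relative of Abcg1, had between 0 and 5 counts per library, and the sterol exporters Abcg5 and Abcg8 had between 0 and 3. These 3 genes were not tested.

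The list of the ester cycle and lysosomal cholesterol had 11 of 17 tested genes above 0, 6 below, a median of 0.02 and 0 passing. Npc1, which moves cholesterol out of the lysosome, was at 498 ± 9.88 CPM in KO against 471 ± 13.8 CPM in WT (mean ± SD, n = 3), with a log2 ratio of 0.08. Gramd1a, which carries sterol from the plasma membrane to the endoplasmic reticulum, had -0.13, and Osbpl1a, an oxysterol-binding protein relative, -0.16, or -0.094 without KO 1. Of the 5 tested genes of oxysterol formation and breakdown 0 passed, 3 lay above 0 and the median was 0.16. Hsd3b7, which acts on oxysterols on the way to bile acids, was at 45.1 ± 1.66 CPM in KO against 40.5 ± 1.48 CPM in WT (mean ± SD, n = 3), with a log2 ratio of 0.16 that did not pass. Gpr183, the receptor that senses a dihydroxycholesterol, had -0.13 and Cyp27a1, which makes a hydroxycholesterol, -0.04. Without WT 2 they were at -0.081 and 0.0041.

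Of 11 tested uptake genes 0 passed, with 7 above 0, 4 below and a median of 0.05. Lrp8, a receptor of the low-density lipoprotein receptor family, had -0.26, Lrpap1, the chaperone of that family, 0.09, and Msr1, a scavenger receptor, 0.19. Lrp8 was at -0.15 without KO 1, and Msr1 ran from 0.072 without KO 3 to 0.31 without KO 1. In the SREBP2 list 0 of 14 passed, 2 lay above 0 and 12 below, with a median of -0.18. Sqle, which encodes squalene epoxidase, had -0.32 and Cyp51, a demethylase of sterol synthesis, -0.31. WT 2 weighed heavily in both, which stood at -0.19 and -0.13 without it. KO 1 and WT 2 were the highest libraries of their genotypes for 9 of these 14 genes, where 20.0% of tested genes held that order. Nr1h3 and Abcg1 held the reverse order, as did 20.9% of tested genes. In the family of Lpcat3, 0 of 7 passed, the median was -0.02, and Lpcat2, Mboat7 and Lpcat4, which also remodel phospholipids, had -0.09, -0.06 and -0.14. These changed sign without WT 2 (0.0078), KO 3 (0.0017) and WT 3 (0.054), respectively.

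**Figure D5:**
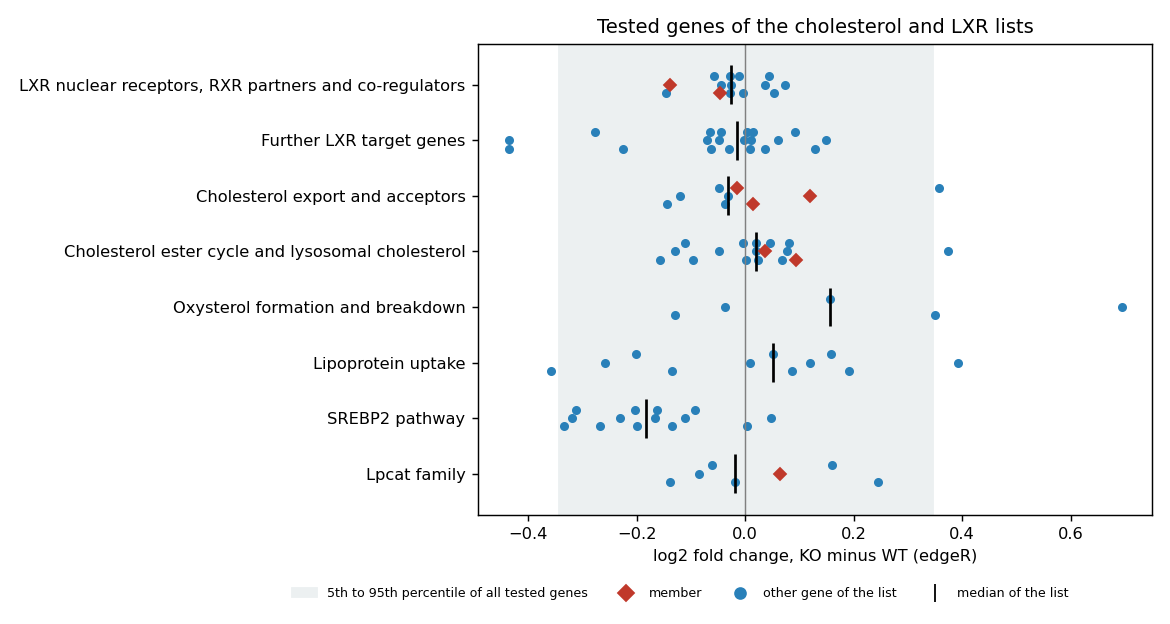
Log2 ratio of KO minus WT (x axis) for each tested gene of the 8 lists (y axis), with diamonds for members, circles for other genes, a black line for each list's median and grey for the 5th to 95th percentile of all tested genes (-0.34 to 0.35). The 8 members in these lists (Mylip is in none) lie inside the grey band, and the SREBP2 list has the lowest median, at -0.18.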

How the data were processed

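RNA extraction used TRIzol, and libraries were prepared using a VAHTS Universal V6 RNA-seq kit, per the labels' protocols. The deposited file is a gene table of raw, unnormalized counts that the authors made using fastp, HISAT2 and HTSeq on mm10, per the submitters' processing notes; their versions, the annotation and the strand setting are not stated there. Genotypes and replicate numbers came from the sample titles.

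The members and lists were chosen with earlier results of these data known. The test was edgeR 4.0.16 (R 4.3.3): TMM factors, filterByExpr (minimum count 10), quasi-likelihood fits (robust, legacy mode) and Benjamini-Hochberg adjustment over 12605 genes at 0.05. Standard errors were taken as |log2 ratio| divided by the square root of the F statistic. CPM use TMM-scaled library sizes, and 3 counts correspond to between 0.0730 and 0.0813 CPM, for counting error only. Replicate pairs differed beyond sampling noise (chi-square per degree of freedom from 11.4 to 34.2). The fit was checked on simulated counts. It called 45 of 67 genes changed 1.5-fold, 44 of 67 changed 2-fold and 61 of 66 changed 4-fold. Of 163 calls 13 were false. The simulated counts were drawn for each gene on its own, without deviations that genes share within a library. They also held many more changed genes than the 4 called in the data, which eases the adjusted threshold. These shares therefore do not give the power to call a member here. Lengths are unions of GENCODE M21 exons; coordinates and promoters come from RefSeq (GRCm38.p6), matched by Entrez Gene ID for 9 members and 8 members. Besides the members, up to 3 genes with the smallest p and at least 1 CPM were named from each list, of which 1 is not reported here. Alternatives were other normalizations, filters and tests (DESeq2 1.42.0, limma 3.58.1 voom), a replicate block and leaving out libraries.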

Additional observations from a re-analysis of the deposited data

How the results depend on the processing

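The count of 0 members and 0 pathway genes called was the same under each of the 14 alternatives. The number of all genes called was 4, and it was 16 with DESeq2, 8 with the replicate block and between 3 and 5 when 1 library was left out; the cause was not tested. Same-numbered KO and WT libraries deviated together only in part (correlations over genes of 0.03, -0.11 and 0.22 for numbers 1, 2 and 3), and KO 1 lay closest to WT 2 (0.26), so the numbers were not taken as pairs. Of the 9 members' values under alternatives, 117 kept their direction and 9 reversed, the latter for Abcg1, Nr1h3, Mylip and Apoe with libraries left out. Without KO 1 and WT 2 together, Mylip was at -0.020, Apoe at -0.068 and Glrx at -0.020. When 1 library was left out, the log2 ratio ran from -0.16 to 0.16 for Abcg1, from -0.36 to 0.15 for Nr1h3, from -0.034 to 0.11 for Mylip and from -0.053 to 0.088 for Apoe. It ran from -0.12 to 0.0095 for Abca7, from -0.13 to 0.047 for Cyp27a1, from -0.14 to 0.0078 for Lpcat2, from -0.10 to 0.0017 for Mboat7 and from -0.29 to 0.054 for Lpcat4. For Sdc3, Glrx and Hat1 it ran from -0.19 to 0.12, from -0.11 to 0.18 and from -0.13 to 0.14. Hat1, at -0.0032, was at 0.00023 with no filter on low counts, 0.0041 with limma voom and 0.0017 with the replicate block. The Lyz2 log2 ratio ran from -1.09 to -0.90 when 1 library was left out. Depth limits the genes under a few counts per library, and for Nr1h3 the spread between libraries sets the width of its interval.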

Other observations

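Genes of the lists with too few counts to be tested included 2 whose counts lay alike in both genotypes, noticed after the values were seen. Ccr7, a chemokine receptor gene and reported LXR target, had 1, 5 and 23 counts in KO 1, 2 and 3 and 1, 6 and 19 in WT 1, 2 and 3. Cyp7b1, which breaks down oxysterols, had 0, 2 and 15 counts in KO and 0, 2 and 15 in WT. Both were highest in KO 3 and WT 3. Sult2b1, which sulfates sterols, had 1, 2 and 4 counts in KO and 13, 4 and 7 in WT, with KO 3 level with WT 2. Apoc1 and Apoc2, apolipoprotein genes that are known to lie beside Apoe, had enough counts to be tested and did not pass. They were at 0.869 and 0.569 CPM in KO and 1.17 and 0.768 CPM in WT, against at least 12168 CPM for Apoe.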
